A study of Mus musculus with 65 samples.

Results

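Neural progenitors of 2 neighbouring domains of the ventral neural tube, pMN and p2, were compared after exposure to the same concentration of SAG. The members were the 12 libraries, of 65 in the whole series, that the labels give as pMN or p2 at 100 nM SAG on days 5 and 6, with 3 libraries for each cell type on each day and therefore 6 pMN and 6 p2 libraries. The study measured RNA by CaTS-RNA-seq, bulk RNA sequencing of fixed cells sorted by antibodies to transcription factors (TFs) within them. All cells came from HM1 mouse embryonic stem (ES) cells, which were differentiated to spinal cord identity with retinoic acid (100 nM) and SAG from day 3. SAG is a small molecule agonist of Smoothened and takes the place of Sonic hedgehog (Shh), and all 12 libraries received it at 100 nM. Progenitors positive for SOX2 were sorted as pMN where OLIG2 was present and NKX2.2 absent. The p2 gate took cells with PAX6 and NKX6.1 but without OLIG2 or NKX2.2. The 2 cell types could thus come from the same dish, and the comparison asks how their RNA differed when the agonist concentration did not. The replicates were independent differentiations of 1 cell line, and the cells are a culture model without the surrounding tissue of an embryo. In bulk RNA, fewer cells of a type and less RNA per cell cannot be told apart.

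In the ventral neural tube, Shh from the notochord and floor plate is read by progenitors as a graded signal, and cross-repressive TFs turn it into domains. OLIG2, a basic helix-loop-helix (bHLH) repressor, marks pMN, whose progeny are motor neurons. Progenitors of the p2 domain lie dorsal to pMN, express PAX6, NKX6.1 and the homeodomain protein IRX3, and give rise to V2 interneurons. ISL1 and LHX3 are LIM homeodomain TFs that act together in motor neuron specification, and choline acetyltransferase, encoded by Chat, makes the transmitter of these neurons.

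Isl1 and Chat were the 2 genes that passed the test in the comparison over both days, and both were higher in pMN. Promoters of the pair are printed because they are the sequences nearest to the difference that was found. Each window runs from 250 bases before to 50 bases after the RefSeq start in GRCm38.p6, on the strand of the gene, at chr13:116309639-116309938 (minus strand) for Isl1 and chr14:32465860-32466159 (minus strand) for Chat. Capitals mark matches to the E-box CANNTG, the letters that bHLH proteins as a class can bind.
Isl1: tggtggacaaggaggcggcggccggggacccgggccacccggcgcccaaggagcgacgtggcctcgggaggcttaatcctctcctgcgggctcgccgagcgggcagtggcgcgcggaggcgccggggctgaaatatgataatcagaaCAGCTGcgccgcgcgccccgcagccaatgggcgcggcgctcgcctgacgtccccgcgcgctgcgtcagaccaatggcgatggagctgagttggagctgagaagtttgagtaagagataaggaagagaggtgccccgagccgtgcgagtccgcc
Chat: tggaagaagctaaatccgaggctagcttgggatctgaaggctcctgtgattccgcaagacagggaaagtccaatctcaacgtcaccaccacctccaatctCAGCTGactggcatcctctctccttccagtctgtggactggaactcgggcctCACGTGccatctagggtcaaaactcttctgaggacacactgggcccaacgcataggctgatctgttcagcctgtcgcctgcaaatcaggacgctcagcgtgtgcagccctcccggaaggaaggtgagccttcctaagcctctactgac
The Isl1 window held 1 E-box and the Chat window 2. TAAT, the core letters of many homeodomain sites, occurred at 2 places in the Isl1 window and at 0 in that of Chat, on either strand. Of all 32851 RefSeq promoters of this length, 72.3% held an E-box and 58.0% held TAAT, and in these 2 windows no match of one motif overlapped a match of the other. A match is a description of the letters and not of binding.

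Depth was similar across the 12 libraries, at 8370994 to 12228329 reads assigned to genes. Genes detected, with 1 read or more, were less evenly numbered. It ran from 12642 to 12985 in p2 and from 11649 to 13469 in pMN on day 5, and from 12991 to 13643 in pMN on day 6, but was 11118, 12617 and 10541 in replicates 1, 2 and 3 of p2 on day 6. Replicates 1 and 3 of day 6 p2 therefore stood below the other 10 libraries, and the main results of day 6 are given also without them, a choice made after the data were seen. Levels below are normalised read counts, which are reads divided by 1 size factor per library. Differences are log2 changes of pMN minus p2 on log2(count + 1), with the standard error (SE) and Benjamini-Hochberg adjusted p of a limma model over 13964 genes. Where reads were few, adding 1 makes a change appear smaller than it was.

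The sorted proteins were first examined at the RNA level, and since they defined the gates their RNA is a description of the sort. Olig2 had levels of 2851, 1368 and 3025 in pMN on day 5 and 3725, 3205 and 4753 on day 6. In p2 it had levels of 271, 130.3 and 549 on day 5 and 1385, 770.5 and 1452 on day 6. The lowest pMN library (1368) thus lay below the 2 highest p2 libraries, both from day 6, although on each day separately the 3 pMN libraries were all above the 3 p2 libraries. The log2 change was 2.40 (SE 1.12, adjusted p = 0.626). Cells gated as negative for OLIG2 protein thus gave Olig2 reads in 6 of 6 p2 libraries.

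Pax6 and Nkx6-1, the TFs of the p2 gate, were present in every library. Pax6 had levels of 1406 to 2246 (median 1858) in pMN and 1847 to 4013 (median 3040) in p2, a log2 change of -0.69 (SE 0.54, and -0.74 without replicates 1 and 3 of day 6 p2). The 2 cell types overlapped on day 5, whereas on day 6 the highest pMN library (2246) was below the lowest p2 library (3338). Pax6, Nkx2-2, Gli1, Nkx6-2 and Ncam1 overlap other genes (Elp4, Nkx2-2os, Arhgap9, Inpp5a and Gm11149) on the opposite strand, whose reads cannot be told apart without strand. Nkx6-1, which is shared by both domains, had levels of 252 to 796 in pMN and 269.8 to 702 in p2, and its log2 change was 0.16 (SE 0.68). Sox2, the progenitor TF used to select all cells, had levels of 759 to 2111 in pMN and 1180.5 to 2403 in p2. The p3 determinant Nkx2-2 reached at most 9.76 in pMN and 5.54 in p2.

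**Figure D1:**
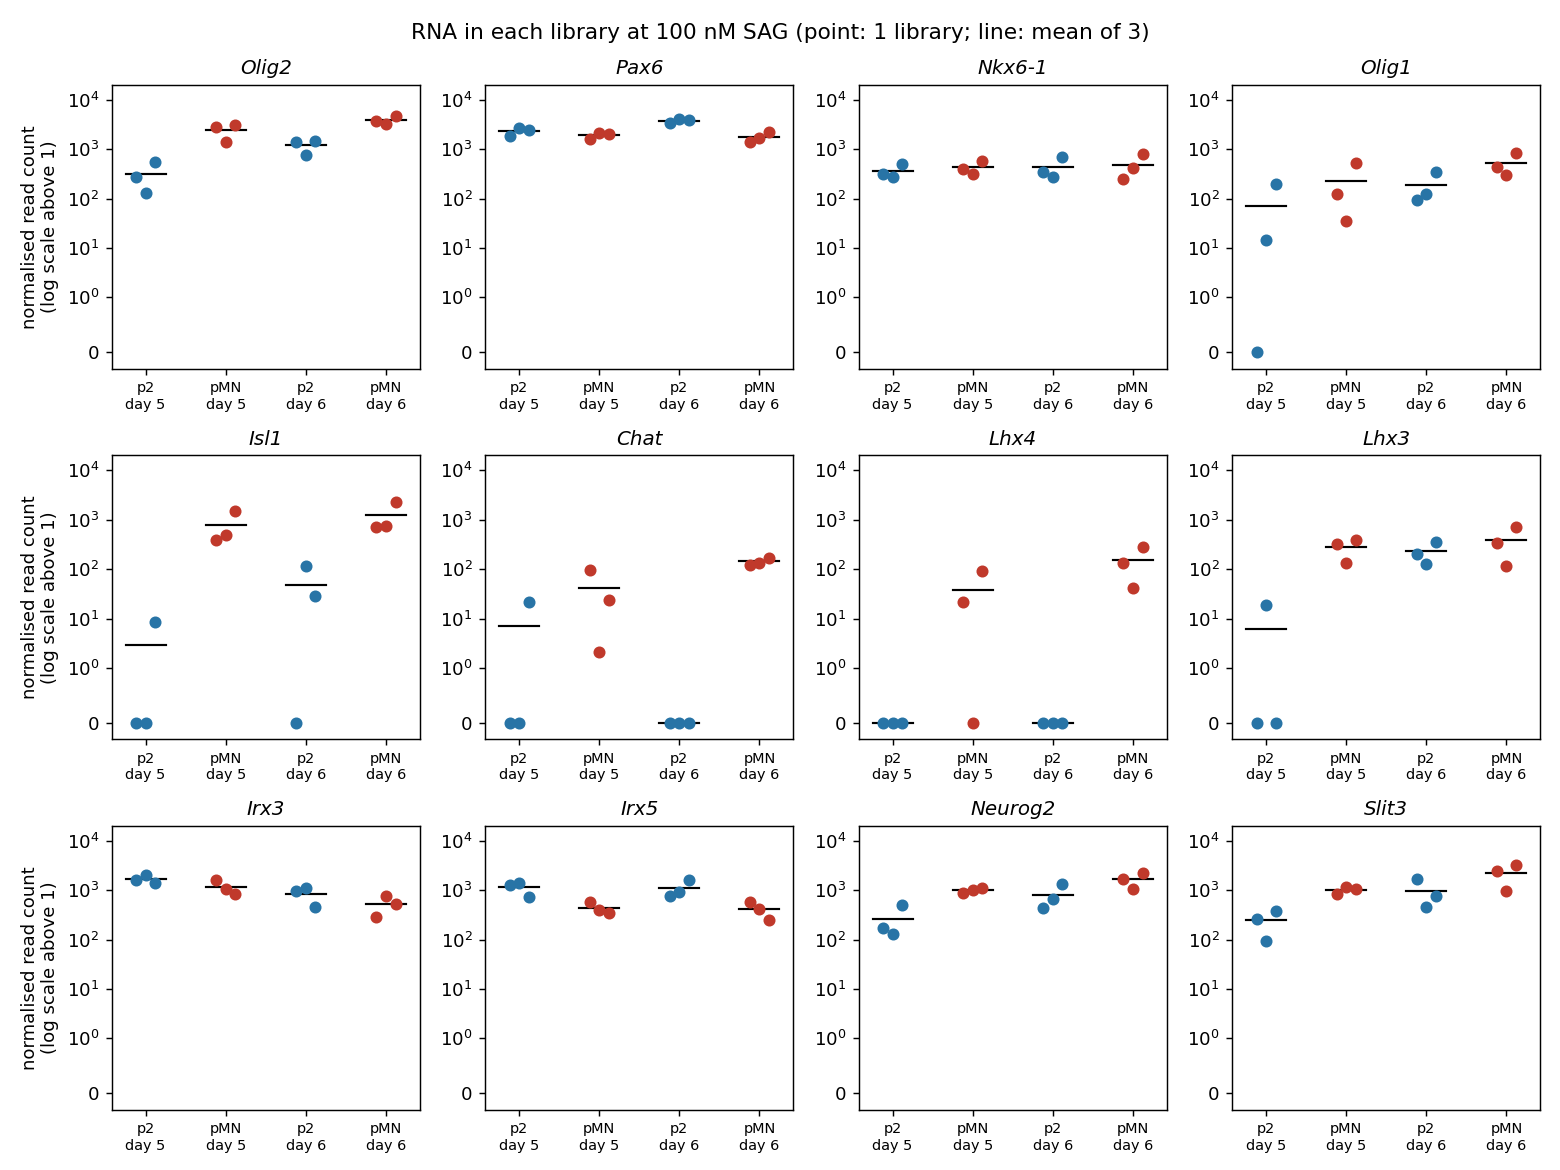
Normalised read counts (vertical axis, log scale above 1) of 12 genes in each p2 and pMN library at 100 nM SAG on days 5 and 6. Each point is 1 library and each line the mean of 3, and Isl1 is the gene shown with a wide gap between the cell types on both days, while Nkx6-1 overlaps on both days.

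Isl1 (13:116298270-116309688 in mm10, minus strand) had levels of 383, 485 and 1471 in pMN on day 5 and 706, 756 and 2239 on day 6. In p2 its levels were 0, 0 and 8.68 on day 5 and 0, 116 and 28.7 on day 6. All 6 pMN libraries were above all 6 p2 libraries, and Isl1 was higher in pMN, with a log2 change of 7.19 (SE 1.13, adjusted p = 0.00111). The change was 8.25 on day 5 and 6.13 on day 6. Without replicates 1 and 3 of day 6 p2 it was 5.72 and no longer passed (adjusted p = 0.0618), and it narrowly missed the threshold of 0.01 without replicate 1 of day 5 p2 (0.0106), replicate 3 of day 5 pMN (0.0106) or replicate 3 of day 6 pMN (0.01).

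Chat (14:32408203-32465909 in mm10, minus strand) had levels of 96.0, 2.14 and 23.9 in pMN on day 5 and 124, 132 and 172 on day 6. In p2 it was at 0, 0 and 21.3 on day 5 and at 0 in all 3 libraries on day 6. The cell types overlapped on day 5 and did not on day 6, when the mean of pMN was at least 44.8-fold higher than 3 reads in a p2 library would give. Over both days the log2 change was 4.98 (SE 0.85, adjusted p = 0.00275). Its adjusted p was above 0.01 without replicate 1 (0.0351) or 2 (0.0234) of day 5 p2, replicate 1 (0.0463) or 3 (0.015) of day 5 pMN, or replicate 3 of day 6 pMN (0.0136), and it was 0.0456 without replicates 1 and 3 of day 6 p2. The vesicular acetylcholine transporter gene Slc18a3, which lies within the span of Chat on the same strand, had a log2 change of 1.46 (SE 1.64, adjusted p = 0.922).

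The calls also depended on the model. With the 12 libraries fitted alone the adjusted p was 0.279 for Isl1 and 0.487 for Chat, and edgeR on the recovered reads gave 0.455 and 0.603. The number of calls ran from 0 to 48 when single libraries were left out, highest without replicate 2 of day 6 p2, and DESeq2 on the recovered reads called 437 genes higher and 117 lower, Isl1 among them and Chat not.

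These 2 calls were 0.0143% of the genes tested, and 0 genes (0%) were called lower in pMN at an adjusted p below 0.01 and a change over 2-fold. At an unadjusted p below 0.05 limma gave 858 genes higher (6.14%) and 197 lower (1.41%), or 7.56% of all genes in either direction. The median log2 change over all genes was 0.15, and 59.6% of genes were above 0. Without replicates 1 and 3 of day 6 p2 the median was 0.01, with 50.3% of genes above 0 and 397 higher and 177 lower at an unadjusted p below 0.05. At an adjusted p below 0.05 there was 1 gene lower in pMN (0.00716%), 2610316D01Rik, an uncharacterised locus. It was at 0 in all 6 pMN libraries and at 57.4, 0 and 79.7 in p2 on day 5 and 441, 72.6 and 412 on day 6, a mean in p2 at least 60.3-fold higher than 3 reads in a pMN library would give (adjusted p = 0.032). Leaving out any library other than replicate 2 of p2 on day 5 or day 6 took its adjusted p above 0.05, to between 0.0537 and 0.121.

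**Figure D2:**
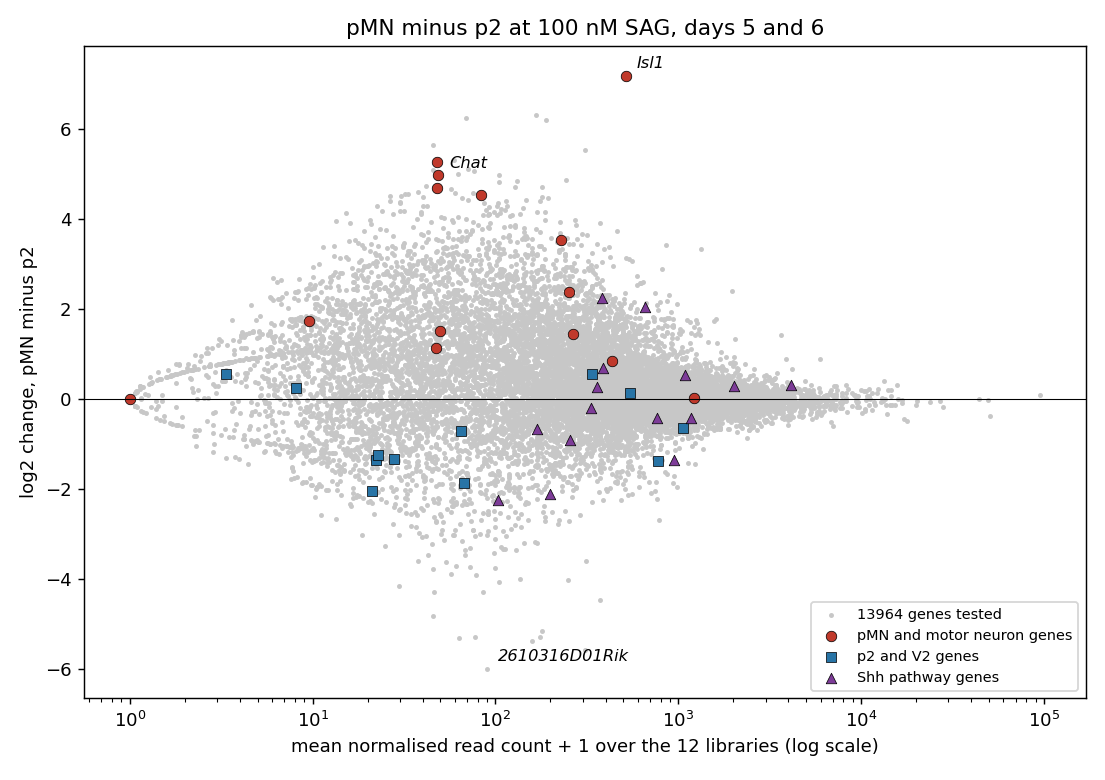
Log2 change of pMN minus p2 at 100 nM SAG over days 5 and 6 (vertical axis) against the mean normalised read count + 1 of the 12 libraries (horizontal, log scale) for 13964 genes in grey, with members of 3 lists in colour. Isl1 at 7.19 and Chat at 4.98 stand high on the pMN side, and the spread of the grey points widens towards low counts.

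The list of pMN and motor neuron genes had 14 of 16 members among the genes tested. Of these, 2 were called higher, 0 were called lower, and 6 had an unadjusted p below 0.05, all higher, against 6.14% of all genes. Their median log2 change was 2.06, beside 0.15 for all genes. The lists were drawn up with earlier results of these libraries known, so that their direction is not independent evidence.

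After Isl1 and Chat came genes of the same neuronal class that did not pass. Lhx4, a LIM homeodomain TF of motor neurons and V2a neurons, was at 0 in all 6 p2 libraries and at 21.8, 0 and 90.3 in pMN on day 5 and 136, 40.8 and 275 on day 6 (log2 change 5.27, SE 1.14, adjusted p = 0.0669). Mnx1 (Hb9), a homeodomain TF of postmitotic motor neurons, had levels of 31.5, 150.1 and 239 and then 67.3, 0 and 59.4 in pMN, and was above 0 in 1 of 6 p2 libraries, at 15.7 (log2 change 4.69, SE 1.4, adjusted p = 0.296). One pMN library was at 0 for each gene, and so the cell types overlapped. Lmo1, a LIM-only cofactor, had levels of 0 to 220.3 in pMN, and in p2 it was at 174 in replicate 3 of day 5 and at most 2.21 elsewhere (log2 change 4.54, SE 1.44, adjusted p = 0.372).

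Lhx3, the partner of Isl1 in motor neurons, had separate levels in the cell types on day 5 and overlapping ones on day 6. Its levels were 320.3, 135 and 388 in pMN and 0, 18.5 and 0 in p2 on day 5, a log2 change of 6.58 with an unadjusted p of 0.000318 that did not pass over all genes. On day 6 levels were 341, 116 and 714 in pMN and 206, 129 and 359 in p2, where Lhx3 also marks V2 precursors, and the log2 change was 0.52. The test between days gave an adjusted p of 0.549, so a difference between days was not shown. Olig1, the neighbour of Olig2 in the genome and a fellow bHLH TF, had levels of 35.4 to 833 (median 368) in pMN and 0 to 350.0 (median 109) in p2 (log2 change 2.39, SE 1.33, adjusted p = 0.714). Isl2, a further motor neuron TF, and Nkx6-2, a homeodomain TF of ventral progenitors, had log2 changes of 1.14 (SE 1.28) and 0.84 (SE 1.17).

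Of 16 genes of p2 and V2 identity 12 were tested, and 0 passed in either direction, with 1 at an unadjusted p below 0.05, which was lower in pMN. The median log2 change was -0.98. Irx5, an Iroquois homeodomain TF, was that gene. Its levels were 579, 406 and 352 and then 565, 419 and 249.5 in pMN, against 1277, 1414 and 716 and then 755, 937 and 1577 in p2. All 6 pMN libraries were below all 6 p2 libraries, with a log2 change of -1.37 (SE 0.52, adjusted p = 0.552).

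Irx3, the Iroquois TF that is cross-repressive with Olig2, had levels of 289 to 1637 in pMN and 456 to 2058 in p2 (log2 change -0.63, SE 0.46, adjusted p = 0.838), and the cell types overlapped on both days. Foxn4, a forkhead TF of early V2 progenitors, had levels of 0 to 78.5 in pMN and 0 to 282 in p2 (log2 change -1.85, SE 1.4). Vsx1, a homeodomain TF of p2 and V2 cells, stood at 211 in replicate 3 of day 5 p2 and at no more than 5.96 in the other 11 libraries. Among markers of V2 neurons, Sox14 was above 0 in 1 pMN library (5.5) and Tal1 in 1 p2 library (57.6). Gata2 and Gata3, TFs of V2b neurons, had log2 changes of -1.24 (SE 1.50) and -1.32 (SE 1.49), with most libraries at 0. The p2 label comes from the sort, and of the p2 markers only Irx5 separated all 6 libraries of each cell type. Sox14 and Tal1 were at 0 in 11 of 12 libraries each.

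The lists of other progenitor domains held 0 calls. Of p3 and floor plate genes 9 of 12 were tested, 1 had an unadjusted p below 0.05, and the median was 0.55. That gene was Nkx2-9, a homeodomain TF of the p3 domain, with levels of 131, 0 and 560.0 and then 105, 189 and 349 in pMN and 45.2, 53.6 and 97.0 and then 0, 0 and 99.4 in p2. The cell types overlapped on day 5 and did not on day 6 (log2 change 5.37 on day 6, adjusted p = 0.052), and the 2 p2 libraries at 0 were replicates 1 and 2. Without replicates 1 and 3, which leaves 1 p2 library of that day, at 0, the day 6 change was 7.58 (adjusted p = 0.0363). Of p0-1 and dorsal genes 10 of 19 were tested, 0 had an unadjusted p below 0.05 in either direction, and Prdm12 was at 0 in all 12 libraries.

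**Figure D3:**
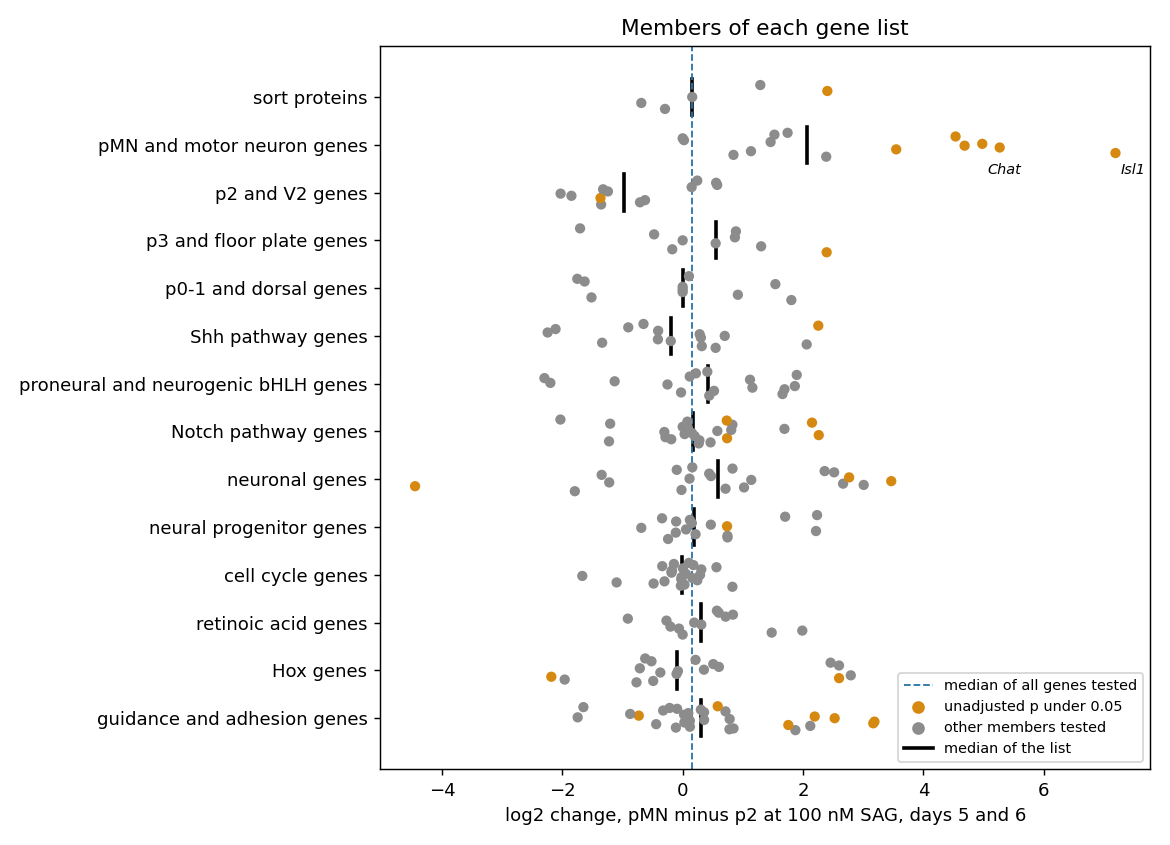
Log2 change of pMN minus p2 at 100 nM SAG over days 5 and 6 (horizontal axis) for the tested members of each gene list, 1 row of points per list. Black bars are list medians, the dashed line is the median of all genes (0.15), and orange points had an unadjusted p below 0.05; pMN and motor neuron genes have the highest median, at 2.06.

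Members of the Shh pathway were compared because both cell types received the same agonist. All 15 were tested, 0 were called, 1 had an unadjusted p below 0.05 and the median was -0.20. None of the 3 targets described here passed. Ptch1, the Shh receptor and a direct target, had levels of 3144 to 5735 in pMN and 1920.1 to 6540.3 in p2 (log2 change 0.32, SE 0.27, adjusted p = 0.873). Gli1 and Hhip, an activator TF and an inhibitory receptor that are both targets, were added after their values were seen. Gli1 had levels of 944.5 to 1582 in pMN and 613 to 1182 in p2 (log2 change 0.55, SE 0.64), and Hhip 165 to 667 in pMN and 324 to 2635 in p2 (log2 change -1.34, SE 1.28). For each of the 3 targets the 2 cell types overlapped.

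Kif7, a ciliary regulator of Gli proteins, had the lowest p of the pathway (log2 change 2.25, SE 0.79, unadjusted p = 0.00619, adjusted p = 0.467). It was at 161 to 752 in pMN and 66.5 to 416 in p2 apart from replicate 3 of day 6 p2, which was at 0, and it overlaps Ticrr on the opposite strand, from which its reads cannot be told apart without strand. Scube2, which helps to release Shh, had levels of 12.9, 2.14 and 0 in pMN and 994, 375 and 434 in p2 on day 5, a log2 change of -7.28 with an unadjusted p of 0.00013. On day 6 it was at 92.7, 387 and 0 in pMN and 0, 62.9 and 0 in p2, and the day 5 difference did not pass over all genes. Smo, which encodes the target of SAG, had a log2 change of 0.30 (SE 0.23).

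Genes of neurogenesis gave few values apart from the median of all genes. For proneural and neurogenic bHLH genes 16 of 20 were tested, with 0 called, 0 at an unadjusted p below 0.05 in either direction, and a median of 0.43. Neurog2, the proneural bHLH TF that works with OLIG2 in motor neuron progenitors, had levels of 896, 1001 and 1134 in pMN and 169, 128 and 491 in p2 on day 5. On day 6 it had levels of 1724, 1053 and 2229 in pMN and 443, 654 and 1324 in p2, so the cell types overlapped only through the highest p2 library (log2 change 1.66, SE 0.89, adjusted p = 0.694). Insm1, a zinc finger TF of newborn neurons, had a log2 change of -2.20 (SE 1.26).

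Of 24 Notch pathway genes 4 had an unadjusted p below 0.05, all higher in pMN, against 6.14% of all genes, and 0 were called. Lfng, which glycosylates Notch receptors, had levels of 26.7 to 283 in pMN and 5.52 to 89.6 in p2 (log2 change 2.26, SE 0.85, adjusted p = 0.539). The receptor gene Notch1 had levels of 1541 to 3967 in pMN and 452 to 2370.3 in p2 (log2 change 0.74, SE 0.34), and reads of an antisense gene, 0610009E02Rik, cannot be told apart from it. Id3 and Id1, inhibitors of bHLH TFs, completed the 4, with log2 changes of 0.73 (SE 0.31) and 2.15 (SE 1.07).

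Neuronal genes were all tested (20 of 20), with 0 called, 2 at an unadjusted p below 0.05 on the pMN side and 1 on the p2 side, and a median of 0.59. The summed level of the list was 4100 to 11600.0 (median 6795) in pMN and 2322 to 12477 (median 6138) in p2, so the summed levels of these 20 genes overlapped. Dcx, a microtubule protein of migrating young neurons, had levels of 0, 1.07 and 163 and then 59.5, 0 and 177 in pMN. In p2 its levels were 77.4, 235 and 31.6 on day 5 and 2747, 581 and 409 on day 6, with the cell types overlapping on day 5 and separate on day 6 (log2 change -4.45, SE 1.47, adjusted p = 0.423, and -4.16 without replicates 1 and 3 of day 6 p2). Mapt, which encodes tau, was at 0 to 94.7 in pMN and at most 7.39 in p2 (log2 change 3.47, SE 1.4, adjusted p = 0.572). Nefm, a neurofilament gene, was at 0 in all 6 p2 libraries and in 3 of 6 pMN libraries (adjusted p = 0.606), and it overlaps A230070E04Rik on the opposite strand. Neuronal markers of the list thus lay on both sides, though more often on that of pMN. Of the 20 genes 14 had a log2 change above 0, against 59.6% of all genes.

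Progenitor and cell cycle lists had medians near 0. All 16 neural progenitor genes and all 23 cell cycle genes were tested, with medians of 0.18 and -0.02 and 0 calls in either list. An unadjusted p below 0.05 was reached by 1 progenitor gene, Notch1, and by 0 cell cycle genes. Top2a, a topoisomerase of dividing cells, had a log2 change of -0.18 (SE 0.16), and the summed cell cycle list was 51564 to 71828 in pMN and 60063 to 70540.0 in p2.

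Of 29 guidance and adhesion genes tested, 0 passed, 6 were higher in pMN at an unadjusted p below 0.05 and 1 lower, against 6.14% and 1.41% of all genes, with a median of 0.30. Slit3, a secreted ligand of Robo receptors, had the lowest p, with levels of 857, 1151 and 1076 in pMN and 265, 95.2 and 371 in p2 on day 5. On day 6 it had levels of 2487, 970.3 and 3173 in pMN and 1705, 449.9 and 749 in p2, and the cell types overlapped only on that day (log2 change 1.76, SE 0.48, adjusted p = 0.229). The receptor gene Robo2 was at 164 to 971 in pMN and at 0 to 1241 in p2 (log2 change 3.17, SE 1.2). The 2 zeros were replicates 1 and 2 of day 6 p2. Without replicates 1 and 3 of day 6 p2 the change was 4.5, but that leaves 1 p2 library of the day, at 0. Nrp2, a semaphorin receptor, was at 458 to 857 in pMN and 32.3 to 474 in p2, with only 1 p2 library above the lowest pMN library (log2 change 2.19, SE 0.99, adjusted p = 0.607). Dcc, the netrin receptor, and Ncam1, an adhesion molecule, had log2 changes of 3.19 (SE 1.27) and 0.58 (SE 0.23). Plxna2, a coreceptor for semaphorins, was the member on the p2 side (log2 change -0.73, SE 0.33).

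Retinoic acid and Hox genes held 0 calls. Of 13 retinoic acid genes tested 0 had an unadjusted p below 0.05, and Crabp2, a retinoic acid binding protein, had a log2 change of -0.20 (SE 0.15). Of 18 Hox genes tested 1 was higher, Hoxa5 (2.60, SE 1.19), and 1 lower, Hoxa6 (-2.18, SE 1.04), at an unadjusted p below 0.05, and the median was -0.09.

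Of the markers of other cells, 0 were called. NMP and mesoderm markers had 8 of 11 members tested and 5 at 0 in all 12 libraries, and their summed level was 0 to 108 in pMN and 92.3 to 395.9 in p2. Their median log2 change was -1.68 on day 5, with 0 of 8 above 0, and 0 on day 6, with 3 above 0. Over both days the median was -0.29, and 0 of the 8 had an unadjusted p below 0.05 on either day or over both. A member at 0 in every library counts here as not above 0. The day 5 shift goes along with the cell type on that day, and its part in the results was not tested. The summed levels of the remaining lists overlapped. Neural crest markers summed to 4.3 to 135.6 in pMN and 1.8 to 114.0 in p2, endothelial markers to 47.0 to 137.2 and 0 to 341.2, and fibroblast and feeder markers to 0 to 189.6 and 1.2 to 392.3. Endoderm markers reached 72.8 and 91.7 and pluripotency markers 51.0 and 97.4 at most. The mesodermal genes were thus the one such list whose range hardly overlapped between pMN and p2.

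Without replicates 1 and 3 of day 6 p2, 0 members of any list were called. That fit leaves 1 p2 library of day 6, so log2 changes alone are compared here. The median of all genes went from 0.15 to 0.01. List medians went from 2.06 to 2.29 for pMN and motor neuron genes and from -0.98 to -1.08 for p2 and V2 genes. They went from 0.30 to 0.06 for guidance and adhesion genes, 0.59 to 0.49 for neuronal genes and -0.09 to -0.23 for Hox genes. Proneural genes went from 0.43 to 0.44, and p3 and floor plate genes stayed at 0.55. Among Notch pathway genes, Id3 went from 0.73 to 0.25, Id1 from 2.15 to 1.01, Lfng from 2.26 to 2.07 and Notch1 from 0.74 to 0.80. Kif7 went from 2.25 to 0.97, and the median of the Shh pathway genes from -0.20 to -0.19.

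Separation of all 6 pMN libraries from all 6 p2 libraries was found for 28 genes (0.201%) that were higher in pMN and 8 (0.0573%) that were lower, or 0.258% of genes in all. Against the 4 p2 libraries left without replicates 1 and 3 of day 6, which overlap less readily by their number, the counts were 94 and 48. Isl1 was the single member of any list among the 28, and Irx5 and Hoxa2 were those among the 8. Zfp869, a zinc finger gene, is an example with narrow values, at 496 to 847 in pMN and 95 to 237 in p2 (log2 change 2.08, SE 0.53, adjusted p = 0.209). Amph, which encodes the nerve terminal protein amphiphysin, was at 49.2 to 183 in pMN and was above 0 in 1 of 6 p2 libraries, at 18.3 (log2 change 6.25, SE 1.64, adjusted p = 0.221). Mbnl3, an RNA splicing regulator, was at 221 to 479 in pMN and 0 to 179 in p2 (log2 change 6.22, SE 1.74, adjusted p = 0.229). At other SAG concentrations, a comparison described below, the log2 change was -0.94 for Zfp869, 1.4 for Amph and 0.68 for Mbnl3. The mean of Mbnl3 there was 304 in pMN and 473 in p2. On day 4 the changes were -0.85, -2.64 and -3.41 in the same order. How many genes would separate by the order of libraries alone was not tested.

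On the p2 side, Wnt3, a Wnt ligand, had levels of 169.7, 72.1 and 43.4 and then 228, 50.5 and 147 in p2, against 0 in 4 of 6 pMN libraries and 8.07 and 27.5 in the other two (log2 change -5.30, SE 1.53, adjusted p = 0.261). Ppp3ca, a catalytic subunit of the phosphatase calcineurin, was at 52.5 to 509.9 in pMN and 539.6 to 1941 in p2 (log2 change -1.61, SE 0.41, adjusted p = 0.209). Of the 28 genes that were higher, 16 had the same sign in the comparison at other SAG concentrations described next, with a median of 0.38 there. Over all genes 48.8% were above 0 in that comparison, and the median was -0.012. Of the 8 lower genes 7 had the same sign there, with a median of -0.32. The log2 change there was -0.11 for Wnt3 (SE 1.63), -0.62 for Ppp3ca (SE 0.44) and -1.38 for Irx5 (SE 0.55). The same sign thus included a much smaller change for Wnt3. On day 4 the changes were -6.02, -0.13 and 0.56 in the same order.

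To see the same cell types in libraries outside these 12, pMN at 500 nM SAG (5 libraries) was compared with p2 at 10 nM SAG (6 libraries) on days 5 and 6. Cell type and SAG concentration cannot be told apart there. This comparison called 11 genes higher in pMN (0.0788%) and 13 lower (0.0931%). Isl1 was at 257 to 2227 in pMN at 500 nM and at 0 to 131 in p2 at 10 nM, with a log2 change of 7.24 (SE 1.2, adjusted p = 0.000683), beside the 7.19 at equal SAG. Chat had a log2 change of 3.56 (adjusted p = 0.0529) and did not pass at 0.01.

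The gap between the cell types was wider there for Olig2, Olig1 and Nkx2-9. Olig2 was at 2172 to 6214 in pMN at 500 nM and 0 to 162 in p2 at 10 nM, with a log2 change of 6.64 (SE 1.18, adjusted p = 0.00176) beside 2.40 at equal SAG. Olig1 had a log2 change of 8.37 (SE 1.41, adjusted p = 0.000683) beside 2.39, and Nkx2-9 9.02 (SE 1.02, adjusted p = 1.98e-07) beside 2.39. Tested directly, a comparison added after the data were seen, the difference between the 2 log2 changes had an adjusted p of 0.562 for Olig2, 0.464 for Olig1 and 0.0595 for Nkx2-9, so none of the 3 passed. Slit3 was called in this comparison (4.31, SE 0.51, adjusted p = 3.48e-07), and it stayed called under all 13 alternatives run. These were pseudocount 10, a replicate block and single libraries left out. Fits of the compared libraries alone, edgeR and DESeq2 were not run for this comparison. Olig1 lost its call under 1 of 13 and Olig2 under 2 (adjusted p up to 0.0115 and 0.0248). Lhx3 (6.31, SE 1.27, adjusted p = 0.0081) and Ptch1 (1.45, SE 0.29, adjusted p = 0.0077) were called too but lost the call under 9 of 13 alternatives each, with adjusted p up to 0.0636 and 0.0824. Scube2 (-7.18, SE 1.31, adjusted p = 0.00246) and the forkhead TF gene Foxe3 (-4.73, SE 0.98, adjusted p = 0.00953) were lower in pMN, and lost the call under 4 and 10 of 13 alternatives (adjusted p up to 0.061 and 0.0601).

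The direct test called 1 gene (0.00716%), Dbx1, a homeodomain TF of the p0 domain. Dbx1 was at 1.06 to 429.9 (median 141) in p2 at 10 nM and at 0 to 2.77 in p2 at 100 nM, and among pMN it was above 0 in 2 libraries of day 5 at 100 nM (88.8 and 288) and in none at 500 nM. Its log2 change was -6.58 (SE 0.96) between pMN at 500 nM and p2 at 10 nM and 1.81 (SE 0.90) between the cell types at 100 nM, and the difference had an adjusted p of 0.00103. Dcc followed with -6.54 (SE 1.34) and 3.19 (SE 1.27), and the difference had an adjusted p of 0.0117. It was at 23.2 to 332 in p2 at 10 nM and above 0 in 2 of 6 libraries of p2 at 100 nM, at 79.2 and 2.66.

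**Figure D4:**
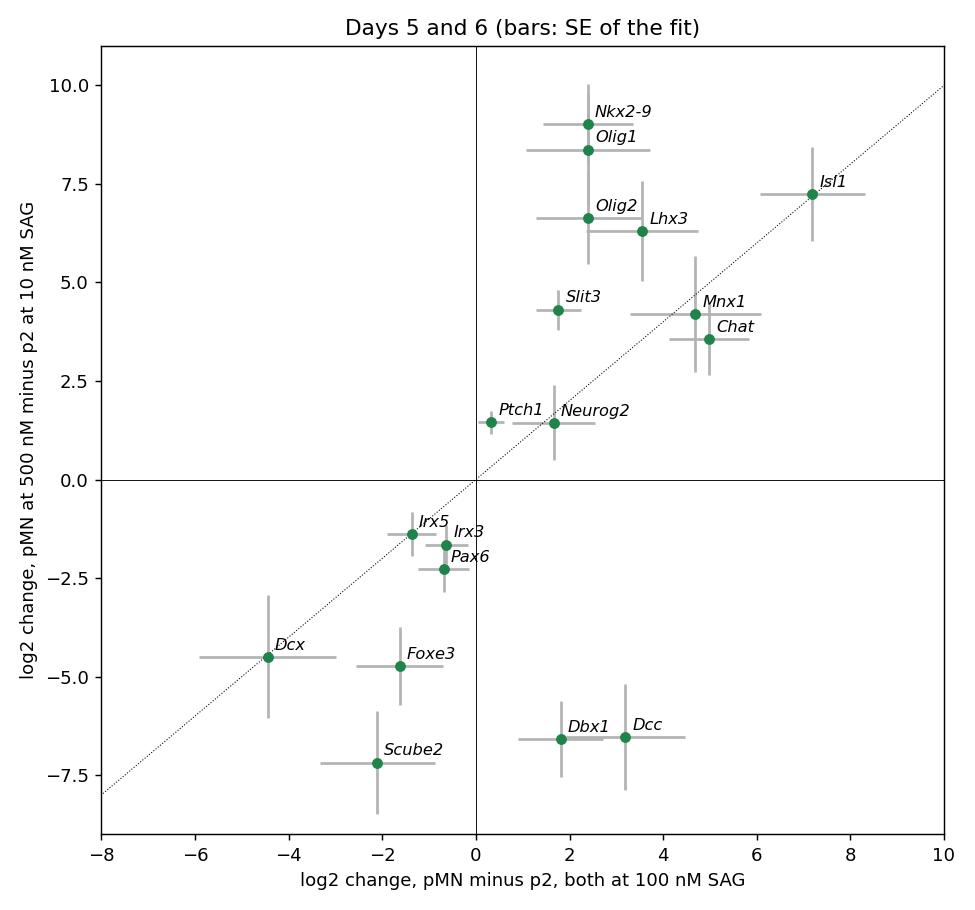
Log2 change of pMN minus p2 with both at 100 nM SAG (horizontal axis) against pMN at 500 nM minus p2 at 10 nM SAG (vertical) over days 5 and 6, for 18 genes of the text. Bars are the SE of each fit and the dotted line marks equal changes; Isl1 lies near the line (7.19 and 7.24), Olig2, Olig1 and Nkx2-9 lie above it, and Dbx1, Dcc and Scube2 lie below it.

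Within single days the counts differed. On day 5 limma called 0 genes, with 549 at an unadjusted p below 0.05 (3.93%), 236 higher in pMN (1.69%) and 313 lower (2.24%). Isl1 had a log2 change of 8.25 there, with an adjusted p of 0.0709. On day 6 there were 22 genes called higher in pMN (0.158%) and 0 lower, with 1379 higher (9.88%) and 175 lower (1.25%) at an unadjusted p below 0.05. The median log2 change over all genes was 0 on day 5 and 0.27 on day 6.

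Of the 22 genes called on day 6, Chat and the secreted semaphorin gene Sema3c were in the lists. Sema3c was at 222.5, 298.6 and 414.8 in pMN and 0 in all 3 p2 libraries on day 6, at least 98-fold higher than 3 reads in a p2 library would give, while its day 5 log2 change was -3.19. Wscd1 was at 742, 638 and 634 in pMN and at 0, 335 and 0 in p2. That pattern was shown by 9 of the 22 genes, and 3 others were at 0 in all 3 p2 libraries of day 6. Thus 12 of the 22 genes were at 0 in both replicates 1 and 3 of day 6 p2, and 21 of the 22 were at 0 in no p2 library of day 5.

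Replicates 1 and 3 of day 6 p2 had 3284 and 3786 of the tested genes at 0, against 2035 in replicate 2 and 1287 to 1685 in pMN on day 6. Without these 2 libraries, where the lone p2 library left is assumed to vary like the other groups, 0 of the 22 calls stayed, their median log2 change went from 5.66 to 0.94, and the sign turned for Tceal8, Cfap298, Dsn1 and Dnmt3b. The median over all genes went from 0.27 to 0. Without any 1 of the 3 pMN libraries of day 6 there were 0 calls, and without replicate 2 of p2, which leaves the 2 libraries with few genes, there were 287. Chat, Sema3c and Ajap1 were at 0 in all 3 p2 libraries of day 6, replicate 2 included.

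**Figure D5:**
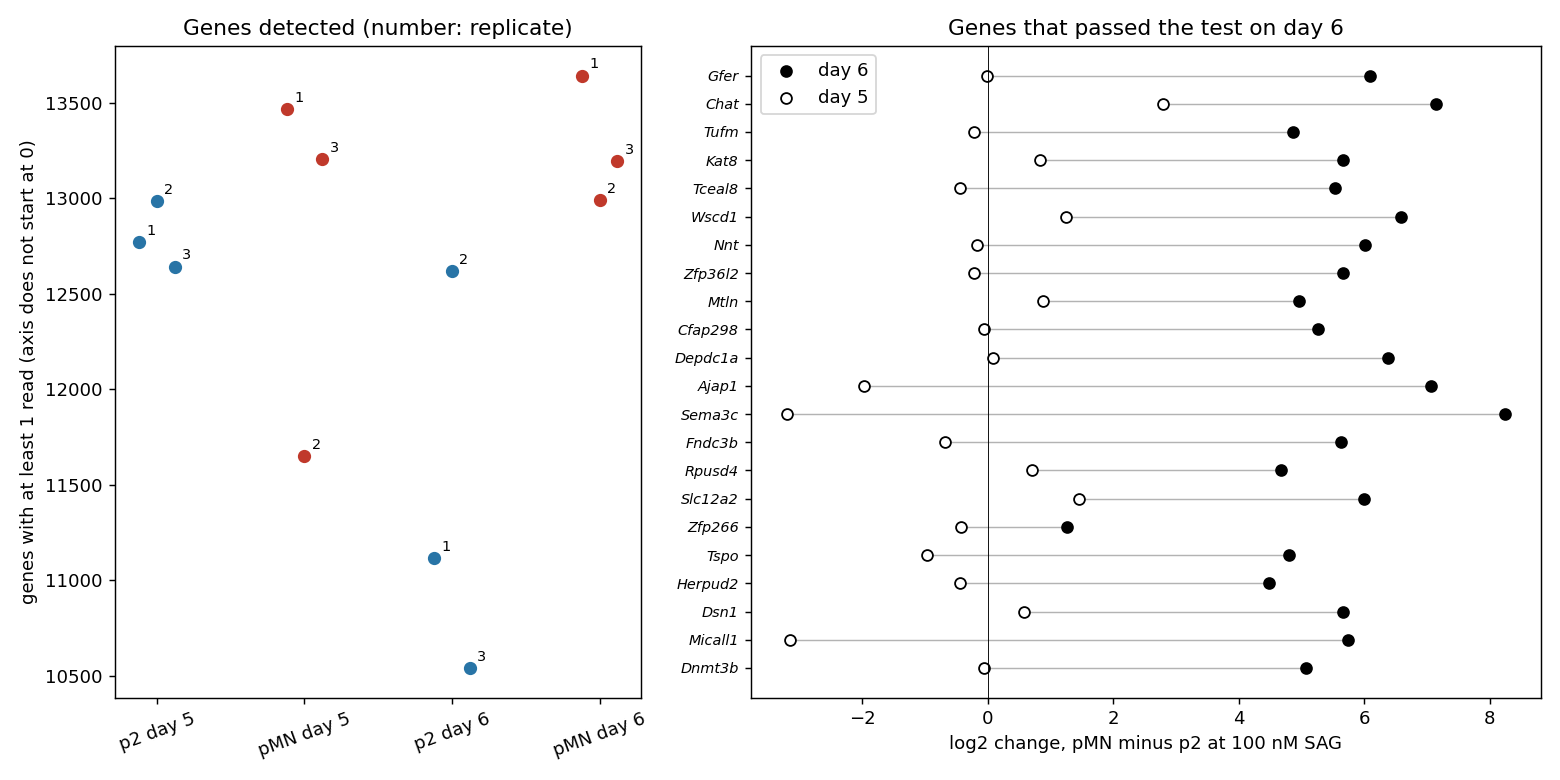
Left, genes with at least 1 read in each of the 12 libraries, with the replicate number beside each point; replicates 1 and 3 of p2 on day 6 are lowest, at 11118 and 10541. Right, log2 change of pMN minus p2 on day 6 (filled) and day 5 (open) for the 22 genes called on day 6, whose day 5 median was -0.11.

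A test of the difference between the days called 0 genes at an adjusted p below 0.01 and 4 (0.0286%) at 0.05, with 979 at an unadjusted p below 0.05 (7.01%). Sema3c was 1 of the 4, with a day 6 change minus day 5 change of 11.44 (SE 2.32, adjusted p = 0.0435), and it stayed below 0.05 in 4 of 15 alternatives. Isl1, Chat and Olig2 had no difference between days that passed, and the test gave Olig2 an adjusted p of 0.983.

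On day 4, pMN and p2 at 100 nM had 2 libraries each. There 7 genes were called lower in pMN (0.0501%) and 0 higher, with 77 higher and 897 lower (6.42%) at an unadjusted p below 0.05, and the count ran from 2 (without replicate 3 of p2) to 196 (without replicate 3 of pMN) when single libraries were left out. The pMN libraries of day 4 had fewer genes detected, 11416 and 12276, than the p2 libraries, 14433 and 13344, and the part of this in the calls was not tested. Isl1 was at 0 in all 4 of these libraries.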

How the data were processed

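RNA of sorted HM1-derived progenitors was measured in 65 libraries, of which 12 form the comparison. The authors aligned reads with STAR to mm10 plus ERCC sequences in an nf-core pipeline and counted them per gene with featureCounts over refGene, ignoring duplicates, which lowers the values of short and abundant genes. Whether strand was used is not stated in the sources used here. The deposited values are a gene-level signal, reads that the authors divided by 1 size factor per library. Per the file headers, the deposited annotation gives gene positions as other values. Within a tolerance of 0.01, 100.0% of values above 0 were whole multiples of 1 read, so reads could be recovered. Of 25239 genes, 5103 were at 0 throughout. The spike-ins have 0 rows in the table, so the scaling was not checked against them. The reads carry no molecular identifiers, so limits drawn from 3 reads cover counting error only.

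Differences were tested with limma (3.58.1, R 4.3.3) on log2(value + 1), pseudocount 1, over 13964 genes with a mean of at least 10, with 1 mean for each of 25 groups, an intensity trend and Benjamini-Hochberg adjustment (residual degrees of freedom 40, prior 7.4). The comparison is the mean of the day 5 and day 6 differences. A gene was called at an adjusted p below 0.01 and a change over 2-fold. The code was tested on simulated data. Named genes were those called, genes with non-overlapping libraries and a mean of at least 100, the members of each list with the lowest p (at most 8), and genes with the lowest p between days. The 12 libraries, the lists and the tests were chosen with earlier results of these data known. Alternatives were pseudocount 10, no filter or a mean of at least 100, TMM, the compared libraries alone, a replicate block, array weights, edgeR (4.0.16) and DESeq2 (1.42.0) on recovered reads, and leaving out each library. All were run for the comparison over both days at 100 nM. The other comparisons had only pseudocount 10, the replicate block and libraries left out. Promoters came from RefSeq (GRCm38.p6), and both of the 2 genes called were matched. Some list members are not reported here by name.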

Additional observations from a re-analysis of the deposited data

Results flagged for a closer look

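The test of the day 6 minus the day 5 difference between pMN and p2 at 100 nM SAG, in limma over all genes, had an adjusted p below 0.05 for 4 genes. Micall1 had a day 6 change minus day 5 change of 8.89 (SE 1.68, adjusted p = 0.0418), and it overlaps an antisense gene from which its reads cannot be told apart. The value was 8.98 for Ccnyl1 (SE 1.81, adjusted p = 0.0435), 11.44 for Sema3c (SE 2.32, adjusted p = 0.0435) and 10.56 for Helb (SE 2.16, adjusted p = 0.0435). All 4 were lower in pMN on day 5 and higher on day 6 by their log2 changes, -3.15 and 5.74 for Micall1, -2.92 and 6.06 for Ccnyl1, -3.19 and 8.24 for Sema3c and -4.69 and 5.87 for Helb. Replicates 1 and 3 of day 6 p2 had the fewest genes detected of the 12 libraries, and on day 6 alone 0 of the 22 calls, Micall1 and Sema3c among them, stayed without those 2 libraries. The test between days itself was at or above 0.05 under 8 of 15 alternatives for Micall1, 12 for Ccnyl1, 11 for Sema3c and 13 for Helb. Its adjusted p was 0.294 for each of the 4 without replicate 2 of day 5 pMN, and without replicates 1 and 3 of day 6 p2 it was 0.508 for Micall1, 0.965 for Ccnyl1 and 0.154 for Sema3c.

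The difference between pMN at 500 nM and p2 at 10 nM minus the difference at 100 nM, a test added after the data were seen, passed at an adjusted p below 0.05 for 4 genes, all lower. It was -8.39 for Dbx1 (SE 1.32, adjusted p = 0.00103), -1.41 for the splicing factor gene Sf3b1 (SE 0.26, adjusted p = 0.0103), -6.98 for Hes2 (SE 1.32, adjusted p = 0.0117) and -9.72 for Dcc (SE 1.85, adjusted p = 0.0117). Cell type and SAG concentration cannot be told apart in the first of the 2 differences. Over 25 alternatives the adjusted p of this test reached 0.00658 for Dbx1 and 0.0429 for Hes2, and without replicate 3 of day 6 pMN at 500 nM it was 0.077 for Sf3b1 and 0.0593 for Dcc.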

How the results depend on the processing

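Over both days at 100 nM, 2 genes were called with the settings of the text, and the count was 1 with a mean of at least 100 (Chat was then not tested), 0 with the compared libraries alone, 0 with the replicate block in those libraries, 0 with edgeR (909 at an unadjusted p below 0.05) and 554 with DESeq2. Of the DESeq2 calls, 437 were higher and 117 lower, 415 were at 0 in at least 6 of the 12 libraries, and 1 was shared with limma. Leaving out single libraries gave 0 to 48 (highest without replicate 2 of day 6 p2). Pseudocount 10 gave 1 call on day 5 and 6 on day 6, where 22 were called. It gave 2 on day 4, where 7 were called, and 4 for the test between SAG concentrations, where 1 was. The replicate block within day gave 49 calls (13 higher, 36 lower) for pMN at 500 nM against p2 at 10 nM, where 24 were called, and 3 for the test between SAG concentrations. The labels do not say whether same-numbered libraries came from the same differentiation. Their deviations from the group means had r from -0.003 to 0.062, and not every library correlated best with its own number. With so few libraries this cannot decide whether the numbers pair them. The fit of the text does not pair them, and the replicate block is given beside it. With the block the comparison over both days kept its 2 calls, and day 6 had 15. Single libraries left out gave 0 to 1 on day 5, 0 to 287 on day 6, 0 to 55 between days (6 without replicates 1 and 3 of day 6 p2), 7 to 44 for 500 against 10 nM, 2 to 196 on day 4 and 1 to 24 between SAG concentrations. Isl1 lost its call under 7 of 23 alternatives and Chat under 10 of 22, with adjusted p up to 0.789 for both. Among genes not called, Nkx6-1 turned (-0.0597 without replicate 3 of day 6 pMN, against 0.355 without replicate 1 and 0.436 without replicates 1 and 3 of day 6 p2). On day 6, without the 2 p2 libraries with fewest genes detected, Tceal8 turned to -0.456, Cfap298 to -0.294, Dsn1 to -0.984 and Dnmt3b to -1.03. The causes were not tested. At a median SE of 0.833 on the log2 scale, a difference of 2-fold could not be called for most genes, and a gene that did not pass is not shown to be equal.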
